A study of Homo sapiens with 6 samples.

Results

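VAT1 and the genes around it on chromosome 17 were examined in K562 cells, a human erythroleukemia line, after siRNA co-depletion of the poly(C)-binding proteins αCP1 and αCP2. The set held 8 of the 57150 genes in the expression table. They were VAT1, its chromosome 17 neighbours AARSD1, RUNDC1, IFI35, RND2, BRCA1 and NBR1, and VAT1L, the paralog of VAT1 on chromosome 16. VAT1 was chosen because its KD/CTRL ratio lay among the lowest in the table, so its own values describe how it was picked and are not a test. The other members were taken by position or by relation to VAT1, and each was matched to 1 row by its gene symbol.

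In the KD group, 3 pools of K562 cells were transfected with siRNAs that target the mRNAs of αCP1 (PCBP1) and αCP2 (PCBP2) together. In the CTRL group, 3 pools received control siRNAs, and in both groups RNA was taken 72 h after transfection. The controls were not untreated cells: the study describes CTRL-1 and CTRL-2 as siRNAs against GLD-2 mRNA and CTRL-3 as a non-targeting siRNA. The table gives 1 FPKM (fragments per kilobase of transcript, scaled to the number of mapped fragments) and 1 estimated count per gene for each group, in columns labelled KD and CTRL. It does not separate the pools, which leaves the replicate spread unknown, and no p-value is given. Every interval is a 95% interval and covers counting error only.

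VAT1 encodes a membrane-associated protein related to the quinone oxidoreductases. Its counterpart was first studied in synaptic vesicles, and the mammalian protein is also known to bind mitofusin, a protein of mitochondrial fusion. The neighbours do unrelated work: BRCA1 acts in DNA repair by homologous recombination, NBR1 is a receptor for selective autophagy, IFI35 is an interferon-induced protein, RND2 is a small GTPase known from neurons, and AARSD1 holds an alanyl-tRNA editing domain. RUNDC1 carries a RUN domain.

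Facts of the whole table bear on how the labels can be read. Over all genes the estimated counts came to 13699340 for KD and 11680567 for CTRL. PCBP1 had an FPKM of 184.1 in the KD column and 187.8 in the CTRL column, a log2 ratio of -0.03. PCBP2 had 530.8 and 342.4, a log2 ratio of 0.63. Thus PCBP1 was nearly equal in both columns and PCBP2 was higher in the KD column. The paper, in contrast, reports depletion of αCP1/2 in both mRNA and protein. In other transfections of K562 cells it used siRNAs against the splicing factor U2AF65, the product of the gene U2AF2. Here the KD column was the lower one for U2AF2, with 13.0 FPKM against 85.3 in CTRL. That difference rested on 351 counts in KD and 2393 in CTRL, and the log2 ratio was -2.63. Why U2AF2 was lower in the KD column was not tested. Of 12 genes that mark erythroleukemia cells, GATA1, KLF1, TAL1 and HBZ had an FPKM of 0 in each column. Of the 5 markers that passed the filter on low values, 4 had a log2 ratio past 1 (KD higher), as did 8.51% of all genes that passed it. Among these 4, HBG2 rested on 31.5 counts in KD and 10.2 in CTRL, and HBA1 on 26 and 5. With counts divided by column totals, 2 of the 5 were past 1, HBE1 at 1.77 and the low-count HBA1 at 1.02. So were 641 of the 13741 genes that passed. Summed over the list, FPKM was 314.7 in KD and 114.4 in CTRL. Of 6 epithelial genes, KRT19 was listed at 0 in both columns, and the list summed to 4358 in KD and 3174 in CTRL, nearly all of it from KRT7, KRT8 and KRT18. The columns are therefore named here as they are labelled. The part of these label and marker values in the results below was not tested. In RNA from a whole pool of cells, fewer cells that make a transcript and less of it per cell cannot be told apart.

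VAT1 (ENSG00000108828) lies on the minus strand of chromosome 17 from 41166622 to 41177140 in hg19. Its neighbours stand close on both sides. IFI35 (ENSG00000068079; chromosome 17, 41158742 to 41166473) runs towards VAT1 on the plus strand, and the genes end tail to tail with 148 bases between the loci of the table. On the other side RND2 (ENSG00000108830; chromosome 17, 41177258 to 41184057) runs away from VAT1 on the plus strand, so that VAT1 and RND2 start head to head with 117 bases between their loci. The stretch between IFI35 and VAT1 is shown because it parts the member that was lowest in KD relative to CTRL from the member that was highest. It was read on the plus strand of GRCh37 at chr17:41166474-41166621, it has 53.4% G and C, and no part is in capitals because no motif was searched in it.

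IFI35 to VAT1: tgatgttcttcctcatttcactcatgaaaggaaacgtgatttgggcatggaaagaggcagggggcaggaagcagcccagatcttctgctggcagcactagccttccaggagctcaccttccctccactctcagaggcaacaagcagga

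Promoter windows from RefSeq (GRCh38.p14; 250 bases before to 50 after the start) matched 5 of the 8 members, which were VAT1L, AARSD1, IFI35, BRCA1 and NBR1. VAT1, RND2 and RUNDC1 had no entry. The window of IFI35 is printed because IFI35 was the member higher in KD by a log2 ratio above 1 and is named for its response to interferon. It lies on the plus strand at chr17:43006534-43006833 and has 55.7% G and C. Capitals mark the motifs found.

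IFI35 promoter: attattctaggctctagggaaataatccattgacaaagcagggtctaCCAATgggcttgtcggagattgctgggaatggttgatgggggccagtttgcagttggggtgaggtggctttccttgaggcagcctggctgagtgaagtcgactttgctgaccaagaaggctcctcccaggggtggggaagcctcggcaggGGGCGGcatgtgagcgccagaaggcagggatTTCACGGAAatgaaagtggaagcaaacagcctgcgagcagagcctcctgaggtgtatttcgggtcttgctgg

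On both strands the window was searched for 5 motifs, and no matches overlapped. A GC box, GGGCGG, began at -53 from the start and is in 45.0% of 35116 windows. A CCAAT box began at -203 and is in 34.6% of windows. A GAS element, written as TTCNNNGAA, began at -22 and is in 7.66% of windows. The TATA box letters TATAAA (11.5% of windows) and the core of the interferon-stimulated response element, GAAANNGAA (8.11%), were not in this window. These matches describe letters only.

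The FPKM of VAT1 was 359.1 in CTRL and 23.2 in KD. In CTRL it was far above every other member, and in KD it lay among them. Its FPKM was 15.5-fold lower in KD than in CTRL, and the log2 ratio of FPKM + 1 was -3.90. The counts behind it were 446 and 4438. Taken as shares of all counts, the log2 ratio was -3.54 (95% exact binomial interval -3.69 to -3.40), which is an 11.7-fold lower share (10.6 to 12.9). Since VAT1 was picked for this ratio, the interval gives the precision of the counts and is no support for the difference.

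A mean FPKM of 1 or more was the filter on low values, and 13741 genes met it. Among these VAT1 ranked 312 from the top in the CTRL column and 4431 in the KD column. Thus VAT1 stood above 97.7% of these genes in CTRL and above 67.8% in KD. A log2 ratio of -1 or less was found for 450 of these genes (3.27%), and a log2 ratio of 1 or more for 1169 (8.51%). With counts divided by column totals the same limits gave 803 and 641 genes. Of the 6 members that passed the filter, VAT1 was at -1 or less and IFI35 was at 1 or more. VAT1L and RND2 did not pass. Since VAT1 was picked from this contrast, nothing is read from its count against the 3.27%.

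**Figure D1:**
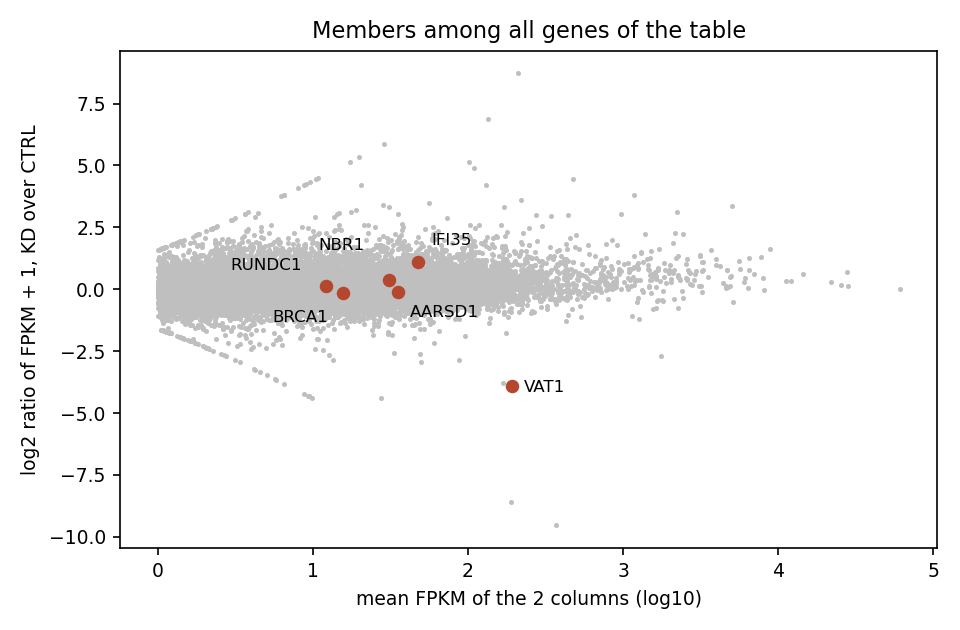
Log2 ratio of FPKM + 1 (KD over CTRL) against the mean FPKM of both columns on a log10 scale, for the 13741 genes that pass the filter (grey) and 6 members (red). VAT1 lies at -3.90, below most genes of like abundance, and the other members lie between -0.15 and 1.11.

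The genes most like VAT1 in this contrast were taken as those with the nearest log2 ratios among the 9432 genes whose mean FPKM was 5 or more. Likeness is then closeness of a single ratio over 2 columns. Below VAT1 lay 8 genes, and 7 of these were listed at an FPKM of 0 in KD and had fewer than 100 counts in CTRL. TMSB4XP6, a pseudogene at the bottom of the list, had an FPKM of 739.2 in CTRL from 0.853 estimated counts. The exception was RP11-867G23.4, a noncoding RNA with 5.73 counts in KD and 190.9 in CTRL and a log2 ratio of -4.40. The 5 genes just above VAT1 were PA2G4 (the row ENSG00000257411) at -3.81, ENSG00000250610, AL590762.1, RP11-692M12.5 and AC007382.1, of which ENSG00000250610 alone had an FPKM above 0 in KD. It was at 21.9 in KD and 315.3 in CTRL, from 231.0 and 3339 counts, with a log2 ratio of -3.79.

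Most of these genes thus rested on few counts. Of the 4935 genes that also had at least 1000 counts over both columns, a threshold chosen after the values were seen, 0 had a log2 ratio of FPKM + 1 below that of VAT1. On count shares the order was other: ENSG00000250610 was at -4.08 (-4.28 to -3.89), below VAT1 at -3.54. From FPKM + 1, the next were ENSG00000250610 at -3.79, the 7SL RNA gene RN7SL2 at -2.69, U2AF2 at -2.63 and SERPINE2 at -1.97. These values are a description and carry no p-value.

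VAT1L (ENSG00000171724; chromosome 16, 77822427 to 78014004, plus strand) was listed at 0 in both columns. On the CPM scale, which divides counts by the column total, its counts of 0 allow up to 0.219 CPM in KD and 0.257 CPM in CTRL, taking 3 counts as the limit. VAT1 itself stood at 32.6 CPM in KD and 379.9 CPM in CTRL. No fold can be given for VAT1L, and no transcript of the paralog was detectable at this depth in either column.

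IFI35 had an FPKM of 65.9 in KD and 30.01 in CTRL, a 2.197-fold higher value in KD and a log2 ratio of 1.11. Its counts were 868 and 383, and as count shares the log2 ratio was 0.95 (0.78 to 1.13). IFI35 was thus higher in KD where VAT1, its nearest neighbour, was lower, although it falls short of a log2 ratio of 1 when counts are divided by column totals (0.93) and when the trend with transcript GC and length is removed (0.68). Only 1 of 988 neighbouring pairs of protein-coding genes with gaps of up to 1000 bases differed this much, and that pair was IFI35 and VAT1, 5.01 apart on the log2 scale. The median difference over these pairs was 0.46 and 95% lay under 1.54. This pair holds the gene that was chosen for its low ratio, so the rank of the pair is a description.

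RND2, on the head-to-head side, was near 0. Its FPKM was 0.206 in KD and 0.0995 in CTRL, while its estimated counts went the other way, at 3.002 and 4.999. The ratio of count shares was 0.51 in KD relative to CTRL with an interval of 0.079 to 2.63, so that no direction can be given. RND2 overlaps CTD-3199J23.4 in the table, and the estimated counts of the pair summed to 5 in each column. How reads were divided between the pair was not tested. The head-to-head partner of VAT1 was too low in both columns to say whether it differed.

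**Figure D2:**
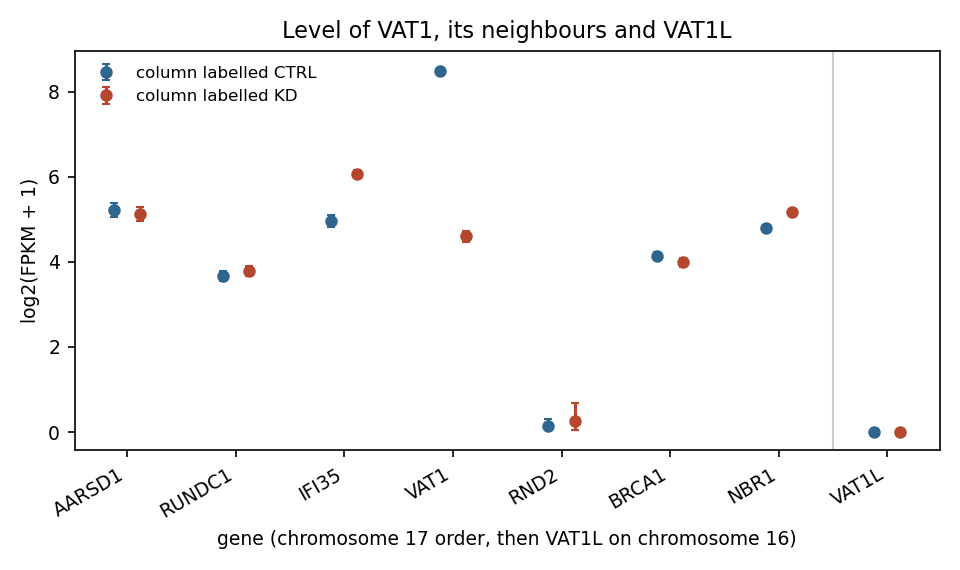
Level of the 8 members as log2(FPKM + 1) in the column labelled CTRL (blue) and the column labelled KD (red), with 95% counting intervals (Poisson) as bars, in chromosome 17 order and then VAT1L. VAT1 is the tallest CTRL point and lies in the range of its neighbours in KD, IFI35 is higher in KD, and RND2 and VAT1L lie at or near 0.

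BRCA1 (ENSG00000012048) shares a locus in the table with NBR2, other noncoding genes and pseudogenes, on chromosome 17 from 41196312 to 41322420. Its FPKM was 14.9 in KD and 16.6 in CTRL, with a log2 ratio of -0.15. The counts were 682 and 854, and the log2 ratio of count shares was -0.55 (-0.70 to -0.41). Removing the trend gave 0.06, so the sign of the BRCA1 difference depended on the setting.

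NBR1 (ENSG00000188554; chromosome 17, 41322498 to 41363708) lies head to head with the locus that BRCA1 shares, 77 bases away in the table. In GENCODE the gap between the outer ends of BRCA1 and NBR1 is 235 bases. Which transcript starts were used was not examined, so the gap does not give the distance between active starts. Its FPKM was 35.3 in KD and 26.7 in CTRL, a log2 ratio of 0.39, and its 1957 and 1485 counts gave a log2 ratio of count shares of 0.17 (0.07 to 0.27). It was higher in KD under each of the 5 settings run, by 0.17 to 0.53 on the log2 scale.

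AARSD1 (ENSG00000266967) had an FPKM of 34.1 in KD and 36.5 in CTRL, a log2 ratio of -0.10. Its estimated counts were 288.5 and 288.6. AARSD1 shares a locus (chromosome 17, 41102543 to 41132545) with PTGES3L, the read-through gene PTGES3L-AARSD1 and RP11-376M2.2. How reads were divided among these genes was not tested. The counts of the first 3 summed to 393 in KD and 352 in CTRL, and the log2 ratio of their summed shares was -0.07 (-0.28 to 0.14). With RP11-376M2.2 added, the 4 genes of the locus had 413 and 361 counts and a log2 ratio of -0.04 (-0.24 to 0.17). Both intervals included 0, and the split between the genes is uncertain.

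RUNDC1 (ENSG00000198863; chromosome 17, 41132582 to 41145707) starts head to head with the shared AARSD1 locus, 36 bases away. In GENCODE the gap to RUNDC1 is 36 bases from PTGES3L-AARSD1 and 16066 bases from AARSD1 itself. Its FPKM was 12.7 in KD and 11.7 in CTRL, with 555 and 512 counts. The log2 ratio was 0.11 from FPKM and -0.11 (-0.29 to 0.06) from count shares, so no direction can be given.

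The order of the members by FPKM differed between the columns. In CTRL it ran from VAT1 (348.6 to 369.8) to AARSD1 (32.5 to 41.0), IFI35 (27.1 to 33.2), NBR1 (25.4 to 28.1), BRCA1 (15.5 to 17.8) and RUNDC1 (10.7 to 12.8), each with its Poisson interval. AARSD1 and IFI35, and IFI35 and NBR1, were not separated by these intervals. In KD it ran from IFI35 (61.6 to 70.5) to NBR1 (33.8 to 36.9), AARSD1 (30.2 to 38.2), VAT1 (21.1 to 25.4), BRCA1 (13.8 to 16.01) and RUNDC1 (11.7 to 13.9). There NBR1 and AARSD1 overlapped, as did BRCA1 and RUNDC1. VAT1 had passed from the top of the list to the fourth place.

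Together the 7 chromosome 17 members had 4799 counts in KD and 7966 in CTRL, a log2 ratio of shares of -0.96 (-1.01 to -0.91). Without VAT1 the other 6 had 4353 and 3528 counts, and the log2 ratio was 0.07 (0.01 to 0.14). The lower summed share in KD rested on VAT1, which was picked for its low ratio. The sum with VAT1 is thus a description and no support for a difference.

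The wider region was taken as every gene whose locus lies within 500 kb of VAT1. It held 77 genes, of which 26 were listed at 0 in both columns and 36 passed the filter. Of the 36, VAT1 was at a log2 ratio of -1 or less (3.27% of all genes were), 4 were at 1 or more (8.51% of all genes were) and 31 lay between. Their median log2 ratio was 0.10, and without VAT1 it was 0.11, against 0.01 for all genes. Its sign turned with counts divided by column totals, where it was -0.09 and the median of all genes was -0.18. Without VAT1, 21 of these genes had a positive log2 ratio and 14 a negative one. The lowest after VAT1 was COASY, which encodes an enzyme of coenzyme A synthesis, with an FPKM of 57.1 in KD and 93.3 in CTRL and a log2 ratio of -0.70.

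**Figure D3:**
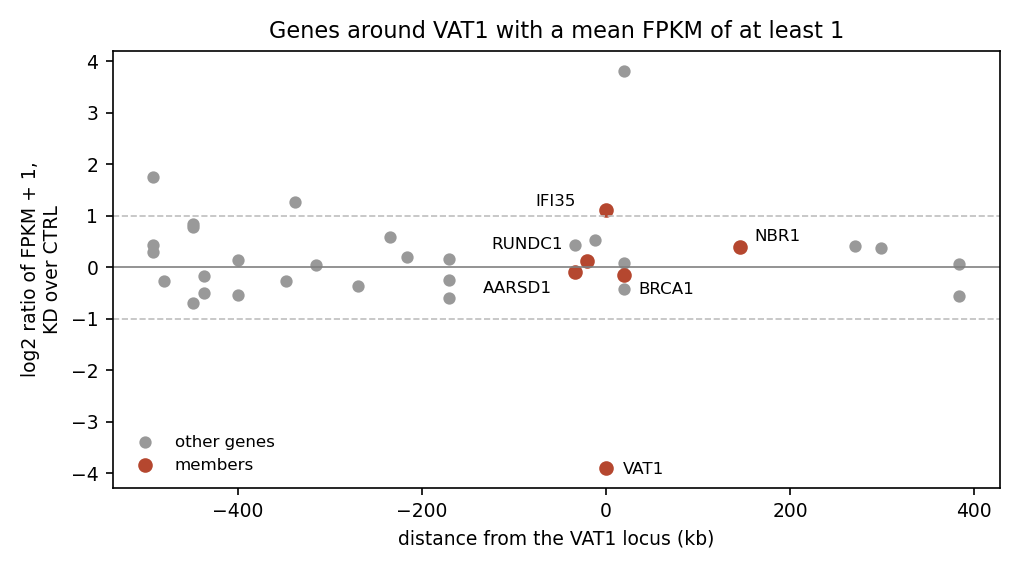
Log2 ratio of FPKM + 1 (KD over CTRL) against distance from the VAT1 locus in kb, for the 36 genes within 500 kb that pass the filter, with members in red and dashed lines at 1 and -1. VAT1 lies at -3.90, and no other gene lies below -0.70.

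The 4 genes at 1 or more were IFI35, PLEKHH3, AC067852.1 and RP11-242D8.3. PLEKHH3 had an FPKM of 15.6 in KD and 5.87 in CTRL, from 371 and 113 counts, and a log2 ratio of 1.27. AC067852.1 rested on 13.0 and 2.55 estimated counts, and RP11-242D8.3 on 1 count in KD and 0 in CTRL, so neither gives a usable fold. With counts divided by column totals, 1 gene of the 36 was at 1 or more (PLEKHH3) and 1 at -1 or less (VAT1). Once the trend with transcript GC and length was taken out, COASY was also below -1, at -1.10, and RP11-242D8.3 alone was at 1 or more among 35 genes.

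Other genes near VAT1 were within 1 in either direction. RPL27, a ribosomal protein gene between RUNDC1 and IFI35, had an FPKM of 1853 in KD and 1281 in CTRL and a log2 ratio of 0.53. PSME3, which encodes a proteasome activator, had an FPKM of 59.99 in KD and 91.5 in CTRL and a log2 ratio of -0.60. BECN1, an autophagy gene whose locus in the table is that of PSME3, had 28.2 and 25.1 and a log2 ratio of 0.16. As counts, VAT1 made up 15.9% of all reads of the 77 genes in CTRL and 1.69% in KD. The 76 others had 25877 counts in KD and 23479 in CTRL, a log2 ratio of shares of -0.09.

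FPKM and counts gave unequal folds for VAT1, and the cause was not tested. With the column total as library size, 1404 nucleotides stood behind 1 FPKM of VAT1 in KD and 1058 in CTRL, a log2 ratio of 0.41. The median over 13626 genes was -0.23, and 98.6% of genes had a lower value than VAT1. GENCODE lists 9 VAT1 transcripts of 478 to 2699 nt, and the share of each in the libraries was not analysed here. For IFI35 the log2 ratio of nucleotides behind 1 FPKM was -0.19 and for BRCA1 it was -0.39.

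**Figure D4:**
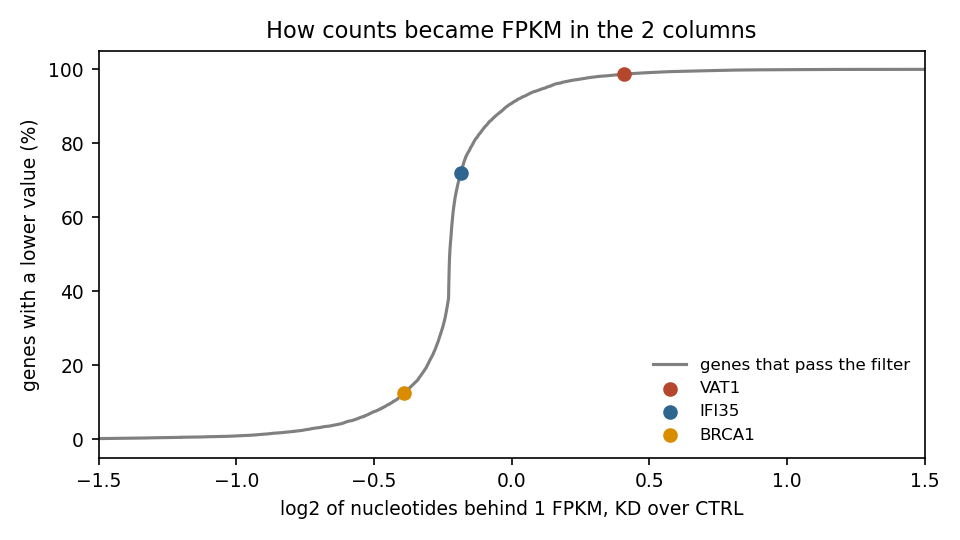
Share of genes (%) with a lower log2 ratio (KD over CTRL) of the nucleotides behind 1 FPKM, as a cumulative curve over 13626 genes, with 3 members marked. VAT1 at 0.41 lies above 98.6% of genes, while IFI35 at -0.19 and BRCA1 at -0.39 lie above 71.9% and 12.5% of genes.

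The relatives of VAT1 in the quinone oxidoreductase family were described as a list. Of 10 genes on this list, VAT1 included, 9 passed the filter and 2 were at a log2 ratio of 1 or more, against 8.51% of all genes. The member at -1 or less, against 3.27% of all genes, is the gene that was picked for its low ratio. Their median was 0.24, against 0.01 for all genes. PTGR2, a prostaglandin reductase, had an FPKM of 14.2 in KD and 3.43 in CTRL, from 473.6 and 117.6 counts, and a log2 ratio of 1.78. MECR, an enzyme of mitochondrial fatty acid synthesis, had 20.6 and 8.93 and a log2 ratio of 1.12, but its 202 and 151 counts gave a log2 ratio of shares of 0.19 (-0.12 to 0.50). PTGR1 was at 0.68, CRYZL1 at 0.57, ZADH2 at 0.24, RTN4IP1 at 0.10, TP53I3 at 0.08 and CRYZ at -0.15, and the sign of the last 3 differed between settings.

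Genes of mitochondrial fusion and fission, the process that the mitofusin partner of VAT1 takes part in, all passed the filter. None of the 7 was at 1 or more or at -1 or less, and their median was 0.07, or -0.13 with counts divided by column totals. The mitofusins MFN1 and MFN2 had FPKM values of 8.99 and 29.0 in KD and 7.04 and 27.6 in CTRL. FIS1, a fission factor, was highest at a log2 ratio of 0.90, and OPA1, an inner-membrane fusion GTPase, was lowest at -0.48.

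Partner genes of the neighbours were described from further lists. Of 12 genes of the BRCA1 list, BRCA1 included, 12 passed the filter and 0 were past 1 in either direction. Their median was -0.22, or 0.04 without the trend and -0.45 with counts divided by column totals. BABAM1, the lowest of the list, was at -0.70, or -1.02 without the trend. RBBP8, which acts in DNA end resection, was at -0.68 and BRE at 0.97. On the IFI35 list of 6 genes, 5 passed the filter. Of these, 1 was at 1 or more (8.51% of all genes were) and 1 at -1 or less (3.27% were). With counts divided by column totals these were 0 and 2, against 641 and 803 of the 13741 genes. IFI35 was at 1.11, while NMI, whose protein binds IFI35, had an FPKM of 2.87 in KD and 9.06 in CTRL, a log2 ratio of -1.38 from 52 and 161 counts. STAT2 was at -0.83 and IRF9 at -0.42, and BATF was listed at 0 in both columns.

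Of the NBR1 list of 10 autophagy genes, all passed the filter and 1 was at 1 or more, which is near the 8.51% of all genes. The median was 0.12, or -0.18 with counts divided by column totals. The gene past 1 was MAP1LC3A, with an FPKM of 12.2 in KD and 2.73 in CTRL from 88 and 24 counts, and its log2 ratio of 1.83 was 0.97 without the trend. SQSTM1, another autophagy receptor, was at -0.35, with an FPKM of 254.7 and 323.8. Among 6 genes of the list of Rnd GTPases and their partners, 4 passed and 0 were past 1 (median -0.10, or 0.06 without the trend), and RND3, a relative of RND2, had an FPKM of 14.5 in KD and 15.6 in CTRL. Of 5 genes of alanyl-tRNA synthesis and editing, 4 passed and 0 were past 1 (median 0.47), with AARS at 0.75. Of 3 RUN domain genes, 2 passed and 0 were past 1 (median 0.13, or -0.01 with counts divided by column totals).

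**Figure D5:**
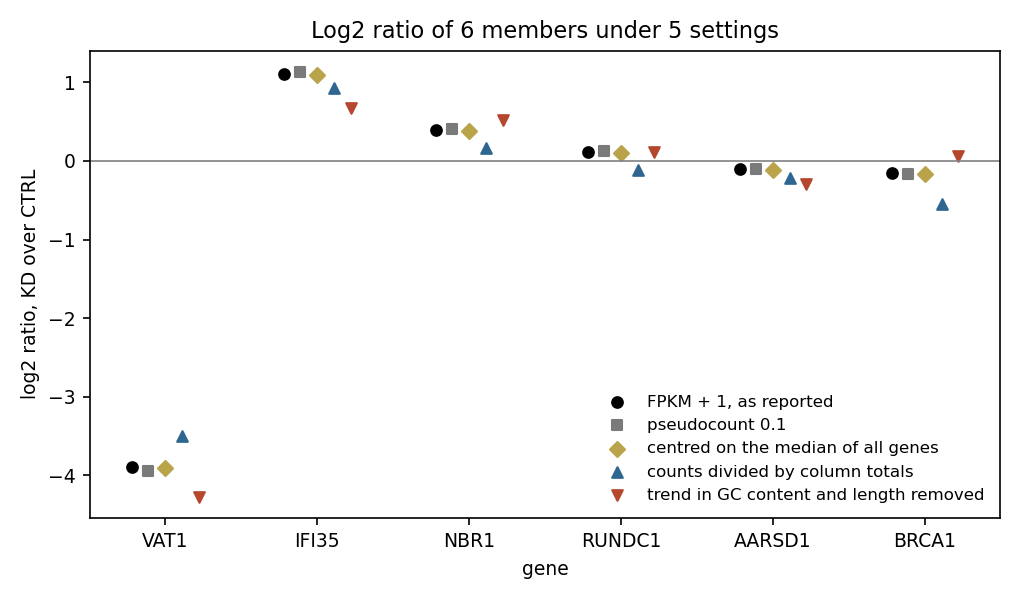
Log2 ratio (KD over CTRL) of 6 members under 5 settings: FPKM + 1, a pseudocount of 0.1, centring on the median of all genes, counts divided by column totals, and the trend with transcript GC and length removed. VAT1 stays between -4.27 and -3.50, while RUNDC1 and BRCA1 lie on both sides of 0.

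The members can be grouped by the sign of their ratios under these settings. The settings rework the same pooled values, and a pseudocount of 0.1 cannot turn the sign of an FPKM ratio. Like signs across settings are thus a description and no support for a difference. VAT1 was also picked for its low ratio. VAT1 was lower in KD in all 5, at -4.27 to -3.50. IFI35 was higher in all 5, at 0.68 to 1.13, and NBR1 was higher in all 5. AARSD1 was lower in all 5, at -0.30 to -0.10, although the interval of its count share included 0. For RUNDC1 and BRCA1 the sign differed between settings, as it did for RND2, which had 4 settings.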

How the data were processed

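RNA-seq libraries from 6 pools of K562 cells were made with a kit that does not mark strand. The authors mapped reads with TopHat 1.4.1 to hg19 and Ensembl transcripts and computed FPKM with Cuffdiff 2.2.0. The deposited table holds FPKM values and estimated counts, 1 of each per gene and group. How the pools were combined, and whether counting used strand, are not given in the sources used here. A further 7 deposited columns (averages, extremes and the authors' own fold change, p-value and FDR) were not used.

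The main value was the log2 ratio of FPKM + 1, KD column over CTRL column; lists were summarised over genes whose mean FPKM reached 1. A ratio on this scale understates the change of low genes. Estimated counts were rounded for the exact binomial intervals of their shares and for Poisson intervals. The planned fit across libraries was replaced by these values. Genes were named by these rules: the members, the genes within 500 kb of VAT1, the lists above and the genes nearest to VAT1 by log2 ratio. Some genes of these lists are not reported here. The members and lists were chosen with earlier results of these data known. The start positions in the table were counted from 0 (22161 of 54483 matched genes had a GENCODE release 44 start 1 base higher and 329 an equal one) and are given counted from 1. GC content and length were those of each gene's longest transcript, for 96.8% of filtered genes. The intervals, ratios and trend removal were tested on simulated data. The simulated counts held Poisson counting error only, and the nucleotides behind 1 FPKM were the same in both columns. Spread between pools was therefore not covered. Alternatives were a pseudocount of 0.1, centring, counts divided by column totals, removal of a quadratic trend with transcript GC and length, and other filters. Values were computed with scipy 1.17.1, pandas 2.3.3 and numpy 2.4.6 under Python 3.11.15 and drawn with matplotlib 3.10.9.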

Additional observations from a re-analysis of the deposited data

How the results depend on the processing

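Across 15 results, 71 values were computed under alternatives, of which 57 moved by less than their limit and 14 moved by more. The limit was the counting interval of a gene, 0.1 for VAT1L, the interval of a list's median, or 1.5 times for a count of genes. Only VAT1 and IFI35 had main ratios past 1, and neither changed direction, while a count of genes cannot change direction. A smaller value could turn its sign within its limit. The median of the chromosome 17 members did so, from 0.11 to -0.22 with counts divided by column totals. With counts divided by column totals, VAT1 was at -3.50 against -3.90, the median of all genes moved from 0.01 to -0.18, 641 genes were at 1 or more against 1169, and 803 at -1 or less against 450. After removal of the trend with transcript GC and length, VAT1 was at -4.27 and 726 genes were at 1 or more. With a pseudocount of 0.1, 791 genes were at -1 or less, and with an FPKM over 5 in at least 1 column, where fewer genes were counted, 292 were. The cause of the other moves was not tested. The setting without VAT1 in its own window was chosen after seeing the data. No paired analysis was possible because single pools are not columns of the table used here, and for the same reason fits without single libraries were not run. Depth limits RND2 and VAT1L, with 5 counts or fewer in each column.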
